A study of Homo sapiens with 2 samples.

Results

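Messenger RNA of 10 genes that drive or restrain the cell cycle was compared between 2 derivatives of PC3 (a line established from a prostate cancer metastasis, without functional p53). The drivers were the cyclin genes CCND1, CCNE1 and CCNA2, the kinase gene CDK6 and the phosphatase genes CDC25A, CDC25B and CDC25C. The brakes were the kinase genes WEE1, CHEK1 and CHEK2. Members were the probe sets whose platform annotation carried one of these symbols, which gave 10 of the 23641 probe sets on the array, 1 per gene, and 10 of the 13864 genes with a name. The genes were picked with their differences between these arrays already known, so the values below are a description and carry no test.

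The derivatives carried stable overexpression of a control microRNA or of miR-95, and both were grown in medium with 10% serum. Each group was measured on 1 Affymetrix array, so no value has a replicate error and the difference between the cultures cannot be told apart from the difference between the microRNAs. Whether each derivative is 1 clone or a pool was not stated in the labels. Of the markers that fit the cell line, KRT7, KRT8, KRT18, KRT19, EPCAM and VIM were all above the median gene on both arrays. The prostate secretory genes KLK2 and KLK3 and the membrane antigen FOLH1 were below it on both. Among markers of other cells, CD14, VWF, DCN and LUM were below the median on both arrays. LUM, a matrix protein of fibroblasts, read 7.33 on the control array, just under the median of 7.46, and 6.04 on the miR-95 array, a larger difference (-1.325 after centring) than that of any member, while the other measured fibroblast marker DCN read 2.90 and 2.76. The endothelial receptor KDR was above the median (7.96 control, 8.28 miR-95). The other markers of these lists were not analysed here, among them PTPRC, PECAM1 and the collagens, and the part of other cells in the results was not tested.

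Progress through the cell cycle depends on cyclin-dependent kinases (CDKs). Cyclin D1 with CDK4 or CDK6 starts the inactivation of the retinoblastoma protein, which frees E2F transcription factors, and cyclin E1 and then cyclin A2 activate CDK2 for entry into and passage through S phase. WEE1 places an inhibitory phosphate on CDKs, the CDC25 phosphatases take it off, and the checkpoint kinases CHEK1 and CHEK2 restrain the CDC25 phosphatases when DNA is damaged or replication stalls.

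The 2 mature strands of the microRNA, from RefSeq on GRCh38.p14, are shown because they define the treated group. Capitals mark the seed, bases 2 to 8, which pairs with target messages. The labels name miR-95 without an arm.
miR-95-3p, chr4:8005312-8005333, minus strand: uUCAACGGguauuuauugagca
miR-95-5p, chr4:8005347-8005367, minus strand: uCAAUAAAugucuguugaauu
The seeds of the 2 strands differ. No probe set used here named the microRNA gene, so its rise was not checked.

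Promoter sequences are shown for the 2 members that were higher on the miR-95 array, CCNA2 and CDK6, and for the 2 lowest members with an entry, CDC25A and CCNE1. CCND1 and WEE1 have no entry in the table used. Each run holds the 250 bases before a RefSeq transcript start on GRCh38.p14, on the strand of the gene. Capitals mark letters that match a motif searched on both strands. The motifs were TTCGCGC or TTGGCGC for E2F, TTTGAA for one form of the CHR element of mitotic genes, and CCAAT for the NF-Y box, which reads ATTGG on the other strand.
CCNA2, chr4:121823884-121824133, minus strand: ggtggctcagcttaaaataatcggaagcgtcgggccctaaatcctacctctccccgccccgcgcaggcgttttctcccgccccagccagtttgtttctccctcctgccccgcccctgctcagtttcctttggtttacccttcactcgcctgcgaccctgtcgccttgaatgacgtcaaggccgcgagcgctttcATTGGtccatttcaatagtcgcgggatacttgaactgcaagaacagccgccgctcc
CDK6, chr7:92836574-92836823, minus strand: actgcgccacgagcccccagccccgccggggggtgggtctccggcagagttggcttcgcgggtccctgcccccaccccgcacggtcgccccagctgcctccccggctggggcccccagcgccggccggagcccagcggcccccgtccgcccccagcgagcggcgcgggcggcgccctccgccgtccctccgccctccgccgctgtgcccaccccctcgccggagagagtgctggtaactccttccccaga
CDC25A, chr3:48188418-48188667, minus strand: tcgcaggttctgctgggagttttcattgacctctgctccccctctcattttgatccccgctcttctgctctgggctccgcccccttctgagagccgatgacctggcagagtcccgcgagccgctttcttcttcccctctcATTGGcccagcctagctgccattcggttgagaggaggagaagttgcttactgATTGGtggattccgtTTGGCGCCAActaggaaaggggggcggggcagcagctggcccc
CCNE1, chr19:29811741-29811990, plus strand: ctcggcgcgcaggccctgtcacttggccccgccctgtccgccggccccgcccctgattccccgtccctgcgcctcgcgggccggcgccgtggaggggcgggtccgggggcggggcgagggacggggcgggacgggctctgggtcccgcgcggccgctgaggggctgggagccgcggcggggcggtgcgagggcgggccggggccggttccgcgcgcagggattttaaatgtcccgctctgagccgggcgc
CDC25A held the E2F letters on both strands in overlapping copies that begin 43 and 40 bases before the start, and CCAAT at 110 and 58 bases before it. CCNA2 held CCAAT at 56 bases before its start. The CDK6 and CCNE1 runs held none of these letters. Other forms of the E2F and CHR motifs were not searched, so a run without capitals may still hold them.

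Over all windows of the 8 members with an entry, which here also take in the 50 bases after the start, E2F letters were found in 1 member (CDC25A), TTTGAA in 1 (CDC25C) and CCAAT in 6. Counted in the same way, over any window of a gene, 10.4% of the 5846 detected genes with an entry held the E2F letters, 13.2% TTTGAA and 43.6% CCAAT. Of all 35116 single promoter windows in the table, 5.06% held the E2F letters, 15.2% TTTGAA and 34.6% CCAAT. The 608 detected genes with the E2F letters had a median difference of -0.045, against -0.035 for all the detected genes with a window, and 64.8% against 60.1% of them were negative. The 774 genes with TTTGAA had a median of -0.065, with 66.1% negative, and the 2551 with CCAAT had -0.045, with 63.1% negative. Of genes without the motif, 59.5% (E2F), 59.2% (TTTGAA) and 57.8% (CCAAT) were negative. A match is only a run of letters, and these medians lie close to that of the detected genes as a whole.

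Levels below are log2 values as deposited. Differences and folds give the miR-95 array minus the control array, in log2 units, after each array was centred on its median over genes. The centring took 0.035 more from the miR-95 values than from the control values. A gene counted as detected when its value reached the median of its array (7.46 control, 7.495 miR-95) on at least 1 array. This kept 7081 genes, and all 10 members passed on both arrays. Levels of different probe sets cannot be ranked against each other, so members are compared only between the 2 values of the same gene. The median gene serves as a rough line for detection and for the markers.

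With miR-95, 2 of the 10 members (CCND1 and WEE1) were lower by 1.5-fold or more, as were 0.861% of all detected genes, and 0 were higher by that much, against 0.395%. Past a smaller limit of 0.32 log2 units, 4 members were lower and 1 was higher, against 5.38% and 3.08% of detected genes. At 2-fold 0 members passed either way, where 0 detected genes were lower and 0.0141% were higher. Differences were negative in 8 members and positive in 2, where 59.4% of detected genes were negative. The median over the members was -0.22, and over all detected genes -0.035. Because the members were chosen from this same comparison, nothing is read from these shares.

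**Figure D1:**
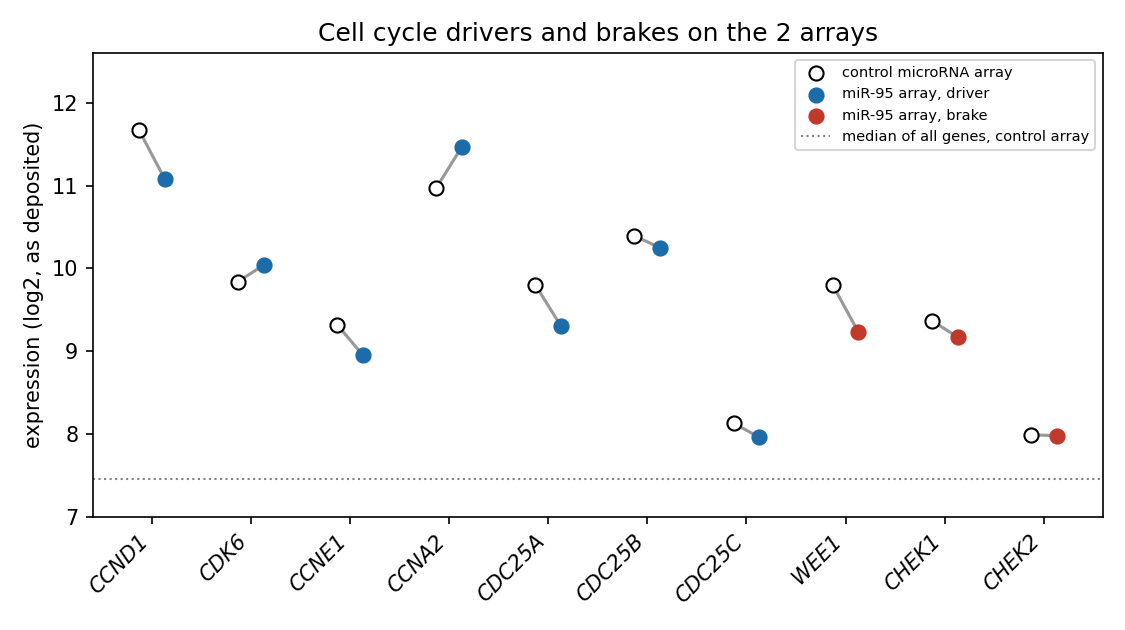
Expression (log2, as deposited) of the 10 genes on the control array (open circles) and the miR-95 array (filled circles, blue for drivers and red for brakes), 1 array each. CCND1 went from 11.67 to 11.08 and CCNA2 from 10.97 to 11.47, and the 2 CHEK2 circles lie at almost the same height. The dotted line is the median of all genes on the control array.

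The G1 cyclin CCND1 read 11.67 on the control array and 11.08 on the miR-95 array. After centring it was 1.54-fold lower, a difference of -0.625, and 41st from the lowest of the 7081 detected genes. CDK6, whose kinase product is switched on by D cyclins, read 9.84 on the control array and 10.04 on the miR-95 array. It was 1.12-fold higher (0.165), and 29.5% of detected genes had a difference of larger size in either direction. The cyclin and this kinase thus differed in opposite directions, 0.79 log2 units apart. CDK4, the close relative of CDK6 that also binds D cyclins, read 12.24 and 12.14 (-0.135).

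CCNE1, the cyclin that activates CDK2 at the start of S phase, read 9.32 on the control array and 8.95 on the miR-95 array. It was 1.32-fold lower (-0.405) and ranked 184th from the lowest. CCNA2, whose cyclin works with CDK2 in S phase and with CDK1 before mitosis, read 10.97 on the control array and 11.47 on the miR-95 array. It was 1.38-fold higher (0.465) and ranked 65th from the highest detected gene. Of the 3 cyclins, CCND1 and CCNE1 were therefore on the lower side and CCNA2 on the higher side, and the difference of CCNE1 lay 0.87 below that of CCNA2.

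The 3 CDC25 phosphatases were all lower, by unequal amounts. CDC25A, which acts on CDK2 at S phase entry as well as later in the cycle, read 9.80 on the control array and 9.30 on the miR-95 array. It was 1.45-fold lower (-0.535), 85th from the lowest and just short of 1.5-fold. CDC25B, which starts CDK1 activation at entry into mitosis, read 10.39 and 10.25 (-0.175). CDC25C, which acts in the amplification of CDK1 activity, read 8.13 and 7.96 (-0.205). For CDC25B 27.1% and for CDC25C 21.3% of detected genes had a difference of larger size, so these lie well inside the bulk of genes.

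Among the brakes, WEE1 read 9.80 on the control array and 9.23 on the miR-95 array. It was 1.52-fold lower (-0.605) and ranked 50th from the lowest detected gene. This call rested on the centring, since the values as deposited differed by -0.57, short of the log2 limit of 0.585. WEE1 and CDC25A, which act on the same phosphate in opposite ways, were lower by nearly the same amount, with 0.07 between their differences. CDC25B and CDC25C lay 0.43 and 0.40 above WEE1.

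CHEK1, the checkpoint kinase activated by ATR when replication forks stall, read 9.37 on the control array and 9.17 on the miR-95 array. It was 1.18-fold lower (-0.235), and 16.7% of detected genes had a difference of larger size. CHEK2, the kinase activated by ATM at DNA breaks, read 7.99 and 7.98, a difference of -0.045 after centring that is close to the median of all detected genes. The brakes were thus lower in WEE1, less so in CHEK1, and nearly level in CHEK2, while the drivers spanned both the lowest and the highest member. Differences were negative in 5 of the 7 drivers (median -0.205) and in 3 of the 3 brakes (median -0.235). Of all detected genes 59.4% were negative, with a median of -0.035. The count of brakes includes CHEK2, whose sign changed, to 0.02, with centring within 10 bins of genomic span.

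**Figure D2:**
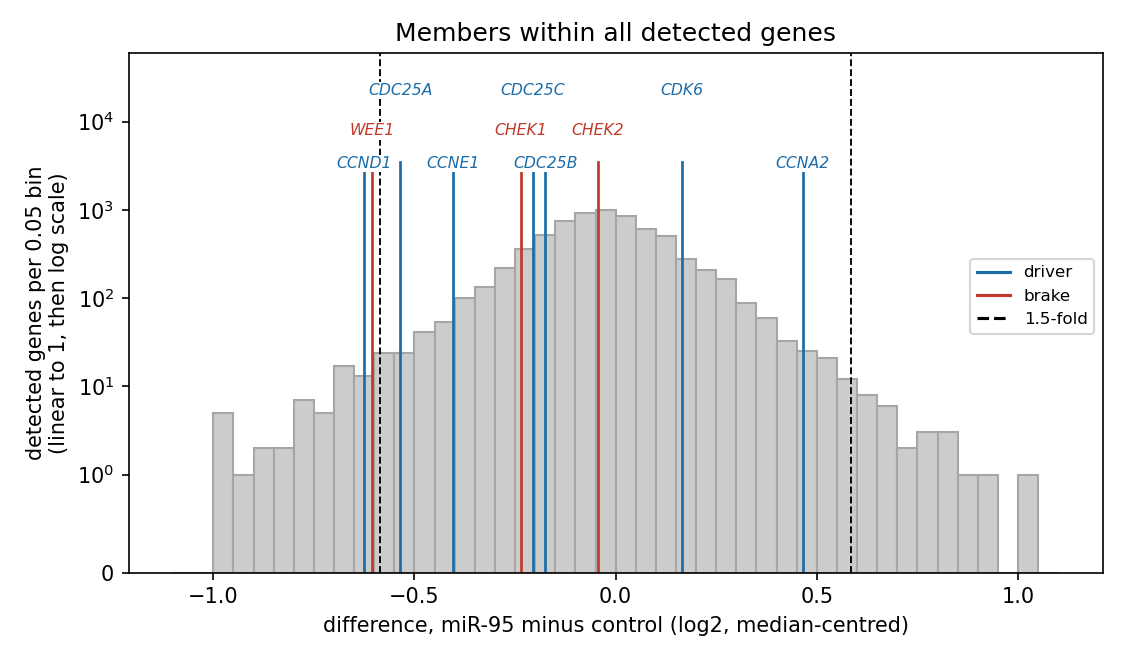
Histogram of the difference between the arrays (miR-95 minus control, log2, median-centred) for the 7081 detected genes, with the count on an axis that is linear to 1 and logarithmic above, and lines for the drivers (blue) and brakes (red). CCND1 and WEE1 lie beyond the dashed 1.5-fold limit, CDC25A (-0.535) just inside it, and CDK6 and CCNA2 lie above 0.

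Each member was read by 1 probe set, so the disagreement between probe sets could only be taken from other genes. In the 68 detected genes with several probe sets, the gap between the most distant probe sets of a gene had a median of 0.12 and a root mean square of 0.214. The differences of CCND1, WEE1, CDC25A, CCNA2, CCNE1 and CHEK1 (6 of 10) were larger in size than 0.214. Those of CDC25B, CDC25C, CDK6 and CHEK2 (4 of 10) were not. Of all detected genes, 21.3% had a difference larger in size than that of CDC25C, and 16.7% larger than that of CHEK1. The share of detected genes past 0.214 lies between these values. The members were picked with their differences known, so nothing is read from their count past 0.214. The robust SD of the difference over all detected genes was 0.148. None of these figures holds the variation between cultures.

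Related genes were taken from 9 lists of 190 genes in all, grouped by role or by cell cycle phase, with the members left out. In none of these lists did a detected gene pass 1.5-fold in either direction. By that much 0.861% of all detected genes were lower and 0.395% higher, so few listed genes would pass at these shares. The differences of the detected listed genes ran from -0.495 (RBBP4) to 0.395, and CCND1, WEE1, CDC25A and CCNA2 lay outside this range. The members were picked with their differences known, so nothing is read from this contrast.

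Of the other cell cycle cyclins, 8 of 9 were measured and 5 detected, with 4 negative and a median of -0.215. CCNF, a cyclin that serves as a ubiquitin ligase subunit and not as a CDK activator, was 1.37-fold lower (8.84 to 8.42). CCNE2, the second E cyclin, differed by -0.275 (9.89 to 9.65), on the same side as CCNE1. The mitotic cyclins CCNB1 and CCNB2 differed by -0.145 and 0.015, so neither reached the positive difference of CCNA2. The D cyclins CCND2 and CCND3 read below the median gene on both arrays (5.65 and 5.71 for CCND2, 7.37 and 7.42 for CCND3), so no difference is read from them.

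All 7 measured CDKs and assembly partners were detected, 6 of them negative, with a median of -0.135. CDK2, the kinase of cyclins E and A, was the lowest (11.51 to 11.25, -0.295), followed by CDK7, which activates other CDKs (-0.205). CDK1, the kinase restrained by WEE1, read 10.85 and 10.72 (-0.165). CKS2, a small CDK-binding subunit, was the one positive gene (0.125).

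Of the CDK inhibitors and pocket proteins, 5 of 11 were measured and 4 detected, all negative, with a median of -0.185. The pocket proteins RBL1, RBL2 and RB1, which hold E2F factors in check, differed by -0.315, -0.205 and -0.165. CDKN2A, which encodes the CDK4 and CDK6 inhibitor p16, was below the median gene on both arrays (7.17 and 7.31). CDKN1A, CDKN1B and CDKN2B, which encode p21, p27 and p15, were not analysed here, so most of the direct CDK inhibitors are missing from the brakes.

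The E2F, DP and DREAM genes numbered 14 detected of 17 listed, 12 of them negative, with a median of -0.17. RBBP4, a histone-binding subunit of DREAM and other complexes, was 1.41-fold lower (11.12 to 10.66), and LIN52, a core DREAM subunit, 1.35-fold lower (7.85 to 7.45). LIN52 read below the median gene on the miR-95 array and was kept through the control array alone. With detection required on both arrays, the list held 12 genes, 10 of them negative, with a median of -0.15. E2F1, an activator of S phase genes, differed by -0.255. LIN37 was the highest of the list at 0.225, LIN9 followed at 0.055, and FOXM1, a transcription factor of mitotic genes, was at -0.005.

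Of 18 regulators of CDC25 and WEE1 activity, 8 were measured, all were detected, and their median of -0.055 was close to that of all detected genes. MELK, a kinase that phosphorylates CDC25B, was 1.33-fold lower (10.96 to 10.58), and MASTL, a kinase that protects mitotic phosphorylation, 1.31-fold lower (10.81 to 10.45). PLK1, which activates CDC25C and marks WEE1 for destruction, differed by 0.045 and AURKA, which activates PLK1, by 0.015. Most 14-3-3 genes and the WEE1 relative PKMYT1 were not analysed here.

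Among ubiquitin ligase and deubiquitinase genes, 13 of 17 were measured and all were detected, 8 negative and 5 positive, with a median of -0.105. BTRC, the F-box protein that recognises phosphorylated CDC25A and WEE1, was 1.29-fold lower (9.83 to 9.50), and CUL4B, a cullin scaffold, 1.22-fold lower. USP2, which removes ubiquitin from cyclin D1, differed by 0.265 (7.51 to 7.81), and FZR1, an activator of the anaphase-promoting complex, differed by 0.115.

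Of 26 checkpoint sensors and adaptors, 17 were measured and all were detected, 15 of them negative, with a median of -0.085. TIPIN, a fork protection protein, was 1.38-fold lower (8.61 to 8.18), and CLSPN, the adaptor through which ATR activates CHEK1, was 1.27-fold lower (8.94 to 8.63). ATR itself was 1.14-fold higher (8.18 to 8.41) and RAD1, of the checkpoint clamp, 1.11-fold higher. CHEK1, at -0.235, lay between its adaptor CLSPN (-0.345) and its activating kinase ATR (0.195). ATM, upstream of CHEK2, was not analysed here.

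The last lists hold transcripts that peak in S phase or in G2 and mitosis. Of 31 detected S phase genes, 30 were negative, with a median of -0.235; 9 were lower and 1 higher by more than the smaller limit of 0.32 log2 units. Of all detected genes 59.4% were negative, 5.38% were lower past that limit and 3.08% higher. TIPIN was the lowest, followed by CASP8AP2, a nuclear protein needed for histone gene expression (8.56 to 8.15, -0.445). Of 40 detected G2 and M phase genes, 30 were negative and 10 positive, with a median of -0.105; 3 were lower and 0 higher past that limit. LBR, a receptor of the inner nuclear membrane, was 1.38-fold lower and the ubiquitin ligase G2E3 1.33-fold lower, while TOP2A, which untangles DNA, differed by 0.255 and the centrosomal kinase NEK2 by 0.215. CCNE1 (-0.405) and CDC25A (-0.535) were negative, as were the medians of both lists. CDC25A lay below every gene of both lists, whose lowest value was -0.465, and CCNA2 (0.465) lay above every gene of both. Nothing is read from these positions, since the members were picked with their differences known. The lists of phases and roles share genes, and their counts are not independent of each other.

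**Figure D3:**
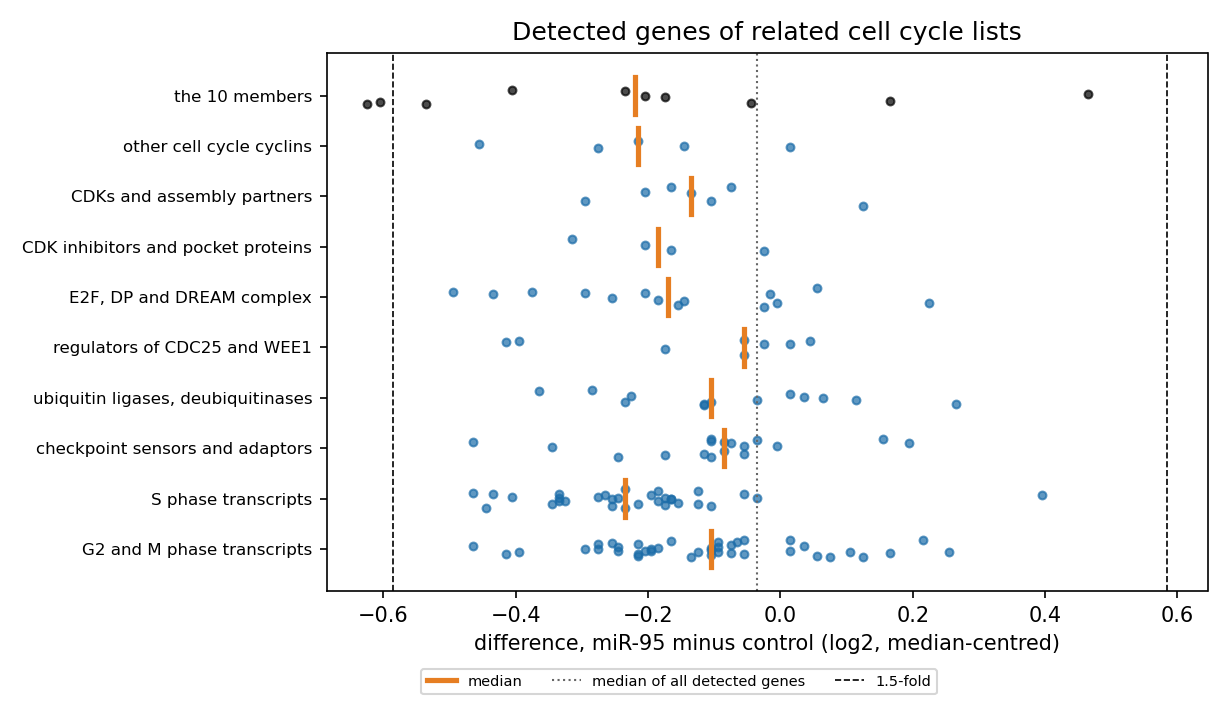
Differences between the arrays (miR-95 minus control, log2, median-centred) of the 10 members (black) and of the detected genes of 9 related lists (blue), with orange bars at the medians, a dotted line at the median of all detected genes and dashed lines at 1.5-fold. The S phase list has its median at -0.235 and 1 gene above 0, and only members of the top row reach the 1.5-fold limit.

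Longer genes tended to read lower on the miR-95 array, with a median difference of 0.015 in the 1770 shortest detected genes by genomic span and -0.075 in the 1771 longest. CCNA2 lay in the shortest group and CDK6, the other higher member, in the longest. Centred within 10 bins of span, CCNA2 differed by 0.45, CDK6 by 0.24, CCND1 by -0.62, WEE1 by -0.59 and CDC25A by -0.48, so the directions of these 5 genes were those given above. CHEK2 alone changed sign, to 0.02.

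**Figure D4:**
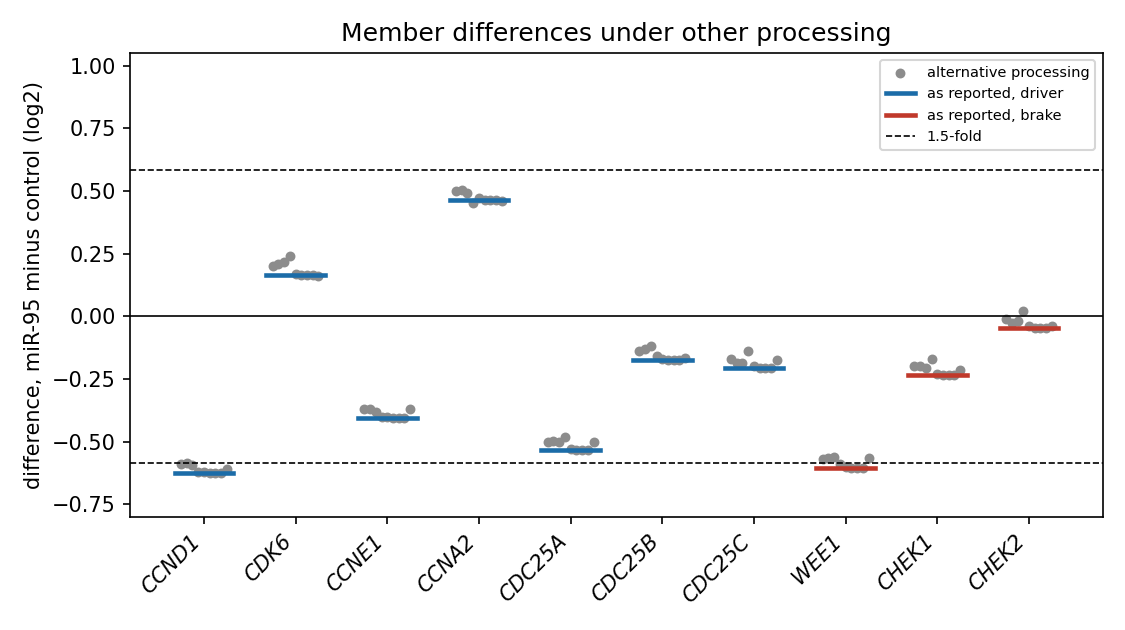
Difference of each member between the arrays (log2) as reported (coloured bars, blue for drivers and red for brakes) and under 9 other processing choices (grey points), with dashed lines at 1.5-fold. CCND1 stays at or beyond the limit, WEE1 crosses it, and CHEK2 spans 0 between -0.045 and 0.02.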

How the data were processed

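Total RNA of 2 PC3 derivatives was measured on 1 array each. The deposited table holds log2 expression values that the authors made with Affymetrix Expression Console 1.2, per the submitters' processing notes. That they are log2 was read from their range (1.79 to 13.84). How probe sets were summarised, background-corrected and scaled between arrays was not stated in the labels. Scaling that sets the arrays equal would hide a shift of all transcripts together.

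Of 23641 probe sets, 14088 (59.6%) carried 1 gene symbol, 0 several and 9553 none. All 14088 identifiers matched the RefSeq table of GRCh38.p14. Probe sets of a gene were averaged and each array was centred on its median over 13864 genes. The steps were run on simulated arrays with known changes and noise scaled to the spread between these arrays. This checks the calculation and not the results. Changes of 0.4 log2 units passed 1.5-fold in 9.21% of the genes made higher and 8.63% of those made lower. With 1 array a group there was no test, and the number of arrays limits the precision.

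The members and lists were chosen with earlier results of these data known. Named were all members and, of each list, genes past 1.5-fold or otherwise the 2 with the largest difference each way. A gene that this rule names in the S phase list is not reported here. CDK1, CDK4, CCNB1, CCND2, CCND3, RB1, CDKN2A, E2F1, FOXM1, KDR and LUM were named after their values were seen. The alternatives were 4 other centrings, the brightest probe set, 3 detection rules, a linear offset of 50 before log2, and limits of 0.32 log2 units and 2-fold. Python 3.11.15, pandas 2.3.3 and statsmodels 0.14.6 (loess, span 0.4) were used.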

Additional observations from a re-analysis of the deposited data

How the results depend on the processing

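The signs of 9 of the 10 members held under all 9 alternatives other than a changed limit, and CHEK2 changed sign, to 0.02, with centring within 10 bins of genomic span. The largest move of any member was 0.075. The 3 detection rules cannot change a member's difference, since all members are detected under each. With 1 probe set per member, the brightest probe set moves a member only through the centring (CCND1 -0.62 against -0.625). The agreement of these alternatives is therefore no evidence of stability. The count of members at least 1.5-fold lower was 1 with the values as deposited, loess centring, quantile normalization or a linear offset of 50. In these settings 0.636%, 0.664%, 0.678% and 0.508% of detected genes were lower by that much, against 0.861% with the median centring. The count of members lower was 4 past 0.32 log2 units (5.38% of detected genes) and 0 at 2-fold (0%). The count higher was 1 past 0.32 log2 units (3.08%). WEE1 was the member lost, at -0.57, -0.57, -0.56 and -0.56 in the 4 settings with a count of 1. CCND1 passed in all 9, but at -0.5864 after loess it was barely past the limit of 0.5850, and as deposited it was at -0.59. Counts past 1.5-fold in the 9 related lists were the same under every alternative run. The values as deposited made 48.0% of detected genes negative, against 59.4% after centring, so counts of signs depend on the centring. With the values as deposited the E2F, DP and DREAM list had 9 of 14 negative genes (12 after centring), the checkpoint sensors 13 of 17 (15), the pocket proteins and inhibitors 3 of 4 (4), the ubiquitin genes 7 of 13 (8), the regulators of CDC25 and WEE1 5 of 8 (6) and the S phase list 29 of 31 (30). The G2 and M phase list (30 of 40), the CDKs (6 of 7) and the other cyclins (4 of 5) kept their counts. Each list median was 0.035 nearer to 0 than after centring. No paired analysis was possible because each group holds 1 array. No replicate could be left out for the same reason.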
